A study of Mus musculus with 16 samples.

Results

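Aminoacyl-tRNA synthetases were described across 2 mouse small cell lung cancer lines that carried Nfib, Mycl1, both or no vector. Members were all genes whose symbol in the array annotation is that of a synthetase, which gave 26 of the 12393 genes with 1 symbol. Where a gene had several probe sets, the brightest on average over the 16 arrays was read. Of the 26, 18 encode cytosolic enzymes and 8 encode mitochondrial enzymes, and all 26 passed the filter on dim probe sets. Of the cytosolic genes, 2 (Gars and Kars) also supply the mitochondrial enzyme. Synthetases outside this list were not analysed here.

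A synthetase joins 1 kind of amino acid to its transfer RNAs, and the charged transfer RNAs then feed the ribosome. Mammalian cells keep one set of enzymes in the cytosol and another in mitochondria, and separate nuclear genes encode nearly all of the mitochondrial enzymes. Some cytosolic synthetases are held together in a multisynthetase complex on the scaffold proteins encoded by Aimp1, Aimp2 and Eef1e1, and the complex members measured were Eprs, Iars, Lars, Qars, Rars and Kars. Genes of cytosolic synthetases are known targets of ATF4, the transcription factor that answers amino acid shortage, and many genes of protein synthesis are known targets of the MYC family, to which L-Myc belongs.

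The lines, 3583T3 and 3151T4, were each grown from a mouse small cell lung tumour. Nfib was carried by the retroviral vector MSCV-Nfib-PGK-Neo. The vector for Mycl1 was MSCV-L-myc-PGK-Puro. The 8 groups were each line with both vectors (Nfib+Mycl1), with the Mycl1 vector, with the Nfib vector, and untransfected (control). Each group had 2 arrays, which gave 4 arrays for a vector over both lines. Nfib encodes nuclear factor I/B, a DNA-binding protein that regulates transcription, and the cDNA was mouse Nfib with a FLAG tag. Mycl1 encodes L-Myc (current symbol Mycl). Expression was stable, and cells were selected with G418 for Nfib or puromycin for Mycl1. The controls carried no empty vector, so each comparison with control also sets vector and selection against neither. The series title asks about Nfib as an oncogene in this tumour. Nothing in the labels says that replicates were separate cultures, so the p-values reflect the spread among these arrays alone, which may be technical.

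The Mycl probe set that separated the vectors went against the label on 2 arrays of 3583T3. It gave 2.67 on the array labelled Nfib+Mycl1 replicate 2 and 10.22 on the array labelled Nfib replicate 2. On the other arrays it lay between 9.08 and 11.05 with a Mycl1 vector and between 2.12 and 2.55 without one. The 4 Nfib probe sets did not separate the labels: the brightest read 10.11 to 10.34 with Nfib+Mycl1, 10.31 to 10.58 with Mycl1, 9.82 to 10.45 with Nfib and 10.48 to 10.76 in controls. A second Mycl probe set read 7.30 on the array labelled Nfib+Mycl1 replicate 2 and 5.60 on replicate 1, against 4.95 on the array labelled Nfib replicate 2 and 7.28 on replicate 1. The Myc probe set read 11.37 and 10.73 on the same Nfib+Mycl1 arrays, against 10.11 and 10.96 on the same Nfib arrays. In 3151T4 both of these probe sets overlapped between Nfib+Mycl1 and Nfib. There this Mycl set read 3.79 and 3.92 with Nfib+Mycl1 and 3.81 and 3.00 with Nfib. It read 5.81 and 6.02 with Mycl1 and 6.64 and 5.93 in controls. The Myc set read 10.02 and 8.63 with Nfib+Mycl1 and 10.34 and 9.27 with Nfib. The remaining Mycl probe set read 1.80 to 2.52 on all 16 arrays. By correlation across all genes tested, a description with no test, the array labelled Nfib+Mycl1 replicate 2 was closest to Nfib replicate 1 (r = 0.989), and the array labelled Nfib replicate 2 to Nfib+Mycl1 replicate 1 (r = 0.990). The other 12 arrays were each closest to their own group. Neither array was relabelled, and counts below are given with all 16 arrays and with the 14 left after these 2 are removed. Another MYC family gene, Mycn, had 1 probe set at 12.19 to 13.26 on all 12 arrays with a vector, Nfib alone included, and at 2.03 to 2.56 in controls. Its 2 other probe sets lay between 2.81 and 5.39 on all 16 arrays. The Mycn signal thus moved with each comparison against control, and its part in those results was not tested.

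Of 15 neuroendocrine markers, 2 (Ncam1 and Uchl1) exceeded log2 4 on all 16 arrays and 7, Chga, Chgb and Syp among them, on none, although small cell lung cancer is known as a neuroendocrine tumour. Of 12 fibroblast markers, 10 exceeded it on all 16. Of 19 macrophage and leukocyte markers, 2 to 4 exceeded it on 3583T3 arrays with a vector, against 16 in 3583T3 controls. In 3151T4 the numbers were 3 to 6 with a vector, against 13 to 14 in controls. The summed linear signal of this list was 241 to 484 with a vector in 3583T3 and 14268 to 22402 in its controls, and 297 to 1052 with a vector in 3151T4 and 7441 to 7451 in its controls. Of the 16 leukocyte markers tested, 15 were lower with Nfib+Mycl1, 15 with Mycl1 and 14 with Nfib than in control, and 0 were higher. Of all genes, 14.7%, 4.69% and 4.96% were lower in the same comparisons. Leukocyte signal thus moved with each comparison against control, and its part in those results was not tested. The mean log2 signal of the fibroblast markers in 3583T3 was 9.91 to 9.99 with Nfib+Mycl1, 8.30 to 8.50 with Mycl1 and 10.03 to 10.16 with Nfib, against 8.11 to 8.54 in controls. In 3151T4 it was 10.10 to 10.36 with Nfib+Mycl1, 8.68 to 8.79 with Mycl1 and 11.54 to 11.68 with Nfib, against 10.00 to 10.01 in controls. Against control, 3 of 12 fibroblast markers were higher and 1 lower with Nfib+Mycl1, beside 16.3% and 14.7% of all genes. With Mycl1 0 were higher and 5 lower, beside 6.63% and 4.69%. With Nfib 8 were higher and 0 lower, beside 5.3% and 4.96%. The part of the fibroblast markers was not tested either. The arrays measured whole cultures, so fewer cells of a type and less RNA per cell cannot be told apart.

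Promoters were examined because 2 short motifs bear on the factors named above. The E-box CACGTG is bound by MYC family proteins, and TGATGNAA (TTNCATCA on the opposite strand) is the core of the amino acid response element bound by ATF4. RefSeq promoters of build GRCm38.p6, from 250 bases before to 50 after the start, were at hand for 17 of the 26 genes, 11 cytosolic and 6 mitochondrial. The 6 windows below run from 150 bases before to 30 after the start, 5′ to 3′ on the strand of the gene, with matches to either motif in capitals. They show the 2 genes with both motifs that were called in a comparison below (Aars and Tars), the other genes with the response element alone (Gars and Yars) and those with the E-box alone (Farsb and Ears2).
Aars: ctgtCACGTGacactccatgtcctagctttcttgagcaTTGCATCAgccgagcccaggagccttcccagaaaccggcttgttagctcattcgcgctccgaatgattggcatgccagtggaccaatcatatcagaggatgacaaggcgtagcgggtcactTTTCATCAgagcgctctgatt
Tars: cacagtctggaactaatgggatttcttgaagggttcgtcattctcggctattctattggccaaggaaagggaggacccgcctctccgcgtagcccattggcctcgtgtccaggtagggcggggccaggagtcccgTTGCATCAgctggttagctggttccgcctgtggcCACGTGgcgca
Gars: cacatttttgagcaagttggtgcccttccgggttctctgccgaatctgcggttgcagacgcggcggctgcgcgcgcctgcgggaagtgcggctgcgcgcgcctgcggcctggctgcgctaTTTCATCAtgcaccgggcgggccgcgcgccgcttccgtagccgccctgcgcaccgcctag
Yars: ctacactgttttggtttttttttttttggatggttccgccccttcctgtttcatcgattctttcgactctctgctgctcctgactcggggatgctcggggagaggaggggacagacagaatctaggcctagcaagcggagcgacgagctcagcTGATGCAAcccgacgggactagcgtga
Farsb: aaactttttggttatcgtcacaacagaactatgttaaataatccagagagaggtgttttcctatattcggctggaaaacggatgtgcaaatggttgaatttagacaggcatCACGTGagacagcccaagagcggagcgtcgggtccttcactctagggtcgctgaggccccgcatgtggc
Ears2: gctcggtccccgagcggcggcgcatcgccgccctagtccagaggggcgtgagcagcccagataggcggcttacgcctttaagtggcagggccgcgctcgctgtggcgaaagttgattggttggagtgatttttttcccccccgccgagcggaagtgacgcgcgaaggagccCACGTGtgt
These windows lie at chr8:111033692-111033871 on the plus strand for Aars, chr15:11399629-11399808 on the minus strand for Tars, chr6:55037851-55038030 on the plus strand for Gars, chr4:129189753-129189932 on the plus strand for Yars, chr1:78488868-78489047 on the minus strand for Farsb and chr7:122067057-122067236 on the minus strand for Ears2.

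The E-box, searched on both strands, was present in 5 of 17 synthetase promoters (29.4%), those of Aars, Ears2, Farsb, Iars and Tars, beside 7.15% of all 32851 promoters in the table. The response element, also searched on both strands, was present in 5 of 17 (29.4%), those of Aars, Gars, Iars, Tars and Yars, beside 3.97% of all promoters. All 5 belonged to cytosolic enzymes, 5 of 11 (45.5%), and 0 of 6 mitochondrial promoters held it in this window. The Aars promoter held 2 copies, and 3 promoters (Aars, Iars and Tars) held both motifs. The motifs did not overlap each other. A match is a description of the letters and not a binding site.

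Some synthetase genes of both kinds were higher in Nfib+Mycl1 cells than in untransfected cells. Of the 26 genes, 12 were higher and 0 lower at a limma adjusted p under 0.05, beside 31% of all 8777 genes tested that were called, 16.3% higher and 14.7% lower. The 12 were 9 of 18 cytosolic genes (Cars, Farsa, Farsb, Gars, Kars, Nars, Sars, Tars and Vars) and 3 of 8 mitochondrial genes (Ears2, Rars2 and Tars2). The median change was 0.48 for cytosolic and 0.21 for mitochondrial genes on the log2 scale, beside 0.03 for all genes. Without the 2 arrays, 13 genes were higher and 0 lower, beside 17.7% of all genes higher. On all 4 Nfib+Mycl1 arrays, 12 of 18 cytosolic and 3 of 8 mitochondrial genes exceeded both control arrays of their line, as 21.5% of all genes did.

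**Figure D1:**
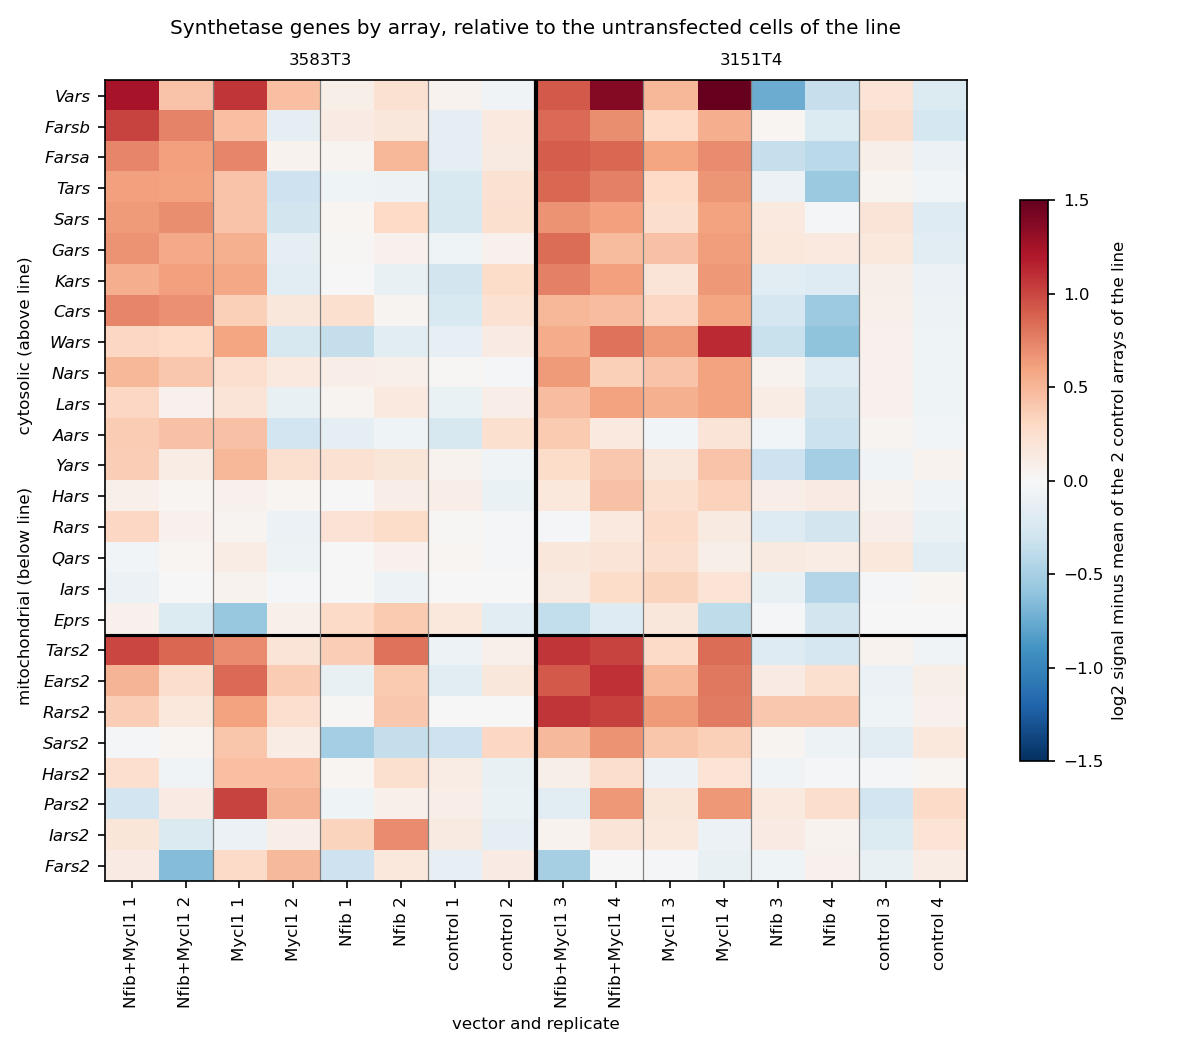
Signal of the 26 genes on every array (columns, by line, vector and replicate) minus the mean of the 2 control arrays of the line, on the log2 scale, with cytosolic genes above the line and mitochondrial genes below it. Red columns are those of Nfib+Mycl1 and most of those of Mycl1.

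Values below are log2 signals of replicates 1 and 2 in 3583T3, and of replicates 3 and 4 in 3151T4, in that order. Vars, which encodes the enzyme for valine, had the largest change of the cytosolic genes. In 3583T3 cells Vars measured 8.65 and 7.84 with Nfib+Mycl1, 8.48 and 7.86 with Mycl1, 7.50 and 7.64 with Nfib, and 7.47 and 7.36 in controls. In 3151T4 cells Vars measured 7.83 and 8.29 with Nfib+Mycl1, 7.41 and 8.49 with Mycl1, 6.17 and 6.57 with Nfib, and 7.12 and 6.70 in controls. Every array with a Mycl1 label lay above both controls of its line, while the Nfib arrays lay above them in 3583T3 and below them in 3151T4. Nfib+Mycl1 exceeded control by 0.99 ± 0.28 (SE, adjusted p = 0.0158), a 1.99-fold difference in 4 arrays against 4. The call was lost without replicate 4 of 3151T4 Nfib+Mycl1 (adjusted p = 0.0544).

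Phenylalanine is charged by an enzyme of 2 kinds of subunit, encoded by Farsa and Farsb. Farsb in 3583T3 cells stood at 11.51 and 11.24 with Nfib+Mycl1, at 10.94 and 10.36 with Mycl1, at 10.61 and 10.66 with Nfib and at 10.35 and 10.64 in controls. Farsb in 3151T4 cells stood at 11.70 and 11.55 with Nfib+Mycl1, at 11.15 and 11.39 with Mycl1, at 10.88 and 10.64 with Nfib and at 11.11 and 10.58 in controls. The 4 Nfib+Mycl1 arrays were the highest of their line, and Mycl1 arrays overlapped controls in 3583T3. Farsb rose by 0.83 ± 0.16 (SE, adjusted p = 0.00198). Farsa in 3583T3 cells stood at 10.52 and 10.40 with Nfib+Mycl1, at 10.51 and 9.84 with Mycl1, at 9.82 and 10.28 with Nfib and at 9.65 and 9.92 in controls. Farsa in 3151T4 cells stood at 10.49 and 10.44 with Nfib+Mycl1, at 10.17 and 10.29 with Mycl1, at 9.24 and 9.18 with Nfib and at 9.67 and 9.50 in controls. Here too all 4 Nfib+Mycl1 arrays exceeded both controls, and the array labelled Nfib replicate 2 in 3583T3 also did. Farsa rose by 0.78 ± 0.19 (SE, adjusted p = 0.00779).

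Tars encodes the threonine enzyme. The Tars signals in 3583T3 were 11.87 and 11.85 with Nfib+Mycl1, 11.67 and 10.93 with Mycl1, 11.18 and 11.17 with Nfib and 11.02 and 11.47 in untransfected cells. The Tars signals in 3151T4 were 11.71 and 11.61 with Nfib+Mycl1, 11.15 and 11.51 with Mycl1, 10.76 and 10.29 with Nfib and 10.89 and 10.81 in untransfected cells. All 4 Nfib+Mycl1 arrays stood above every other array of their line, and the Nfib+Mycl1 change was 0.71 ± 0.18 (SE, adjusted p = 0.00829). Replicate 2 of 3583T3 Mycl1 was below both of its controls. Gars encodes the glycine enzyme. The Gars signals in 3583T3 were 12.63 and 12.53 with Nfib+Mycl1, 12.49 and 11.82 with Mycl1, 11.98 and 12.02 with Nfib and 11.90 and 12.02 in untransfected cells. The Gars signals in 3151T4 were 12.42 and 12.05 with Nfib+Mycl1, 12.02 and 12.20 with Mycl1, 11.73 and 11.72 with Nfib and 11.73 and 11.42 in untransfected cells. All 4 Nfib+Mycl1 arrays of Gars exceeded both controls, which replicate 2 of 3583T3 Mycl1 did not, and the Nfib+Mycl1 change of Gars was 0.64 ± 0.13 (SE, adjusted p = 0.00332).

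Kars, for lysine, was the 1 complex member that passed the test. In 3583T3 cells Kars measured 11.40 and 11.47 with Nfib+Mycl1, 11.44 and 10.69 with Mycl1, 10.87 and 10.75 with Nfib, and 10.59 and 11.13 in controls. In 3151T4 cells Kars measured 11.36 and 11.22 with Nfib+Mycl1, 10.80 and 11.25 with Mycl1, 10.45 and 10.42 with Nfib, and 10.69 and 10.52 in controls. Nfib+Mycl1 arrays lay above both controls in each line, and replicate 1 of 3583T3 Mycl1 reached the same level, whereas replicate 2 did not. Kars rose by 0.63 ± 0.16 (SE, adjusted p = 0.0094). Sars encodes the serine enzyme. In 3583T3 cells Sars measured 11.65 and 11.72 with Nfib+Mycl1, 11.44 and 10.73 with Mycl1, 11.05 and 11.32 with Nfib, and 10.78 and 11.25 in controls. In 3151T4 cells Sars measured 12.12 and 12.06 with Nfib+Mycl1, 11.71 and 12.05 with Mycl1, 11.59 and 11.42 with Nfib, and 11.64 and 11.25 in controls. The Nfib+Mycl1 change of Sars was 0.65 ± 0.16 (SE, adjusted p = 0.00835), and all 4 of its arrays exceeded their controls.

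Cars, for cysteine, and Nars, for asparagine, complete the cytosolic genes that rose. Cars in 3583T3 cells stood at 9.61 and 9.57 with Nfib+Mycl1, at 9.23 and 9.04 with Mycl1, at 9.12 and 8.91 with Nfib and at 8.65 and 9.10 in controls. Cars in 3151T4 cells stood at 9.02 and 8.99 with Nfib+Mycl1, at 8.84 and 9.12 with Mycl1, at 8.27 and 7.98 with Nfib and at 8.61 and 8.45 in controls. All 4 Nfib+Mycl1 arrays were above both controls, and both Nfib arrays of 3151T4 were below them. Cars rose by 0.60 ± 0.16 (SE, adjusted p = 0.0133), a call that was lost without replicate 1 of 3583T3 control (adjusted p = 0.0521). Nars in 3583T3 cells stood at 12.01 and 11.91 with Nfib+Mycl1, at 11.77 and 11.65 with Mycl1, at 11.61 and 11.59 with Nfib and at 11.52 and 11.50 in controls. Nars in 3151T4 cells stood at 11.49 and 11.22 with Nfib+Mycl1, at 11.28 and 11.46 with Mycl1, at 10.91 and 10.66 with Nfib and at 10.93 and 10.79 in controls. All 8 arrays with a Mycl1 label exceeded both Nars controls of their line, and the Nfib+Mycl1 change was 0.47 ± 0.11 (SE, adjusted p = 0.00555).

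**Figure D2:**
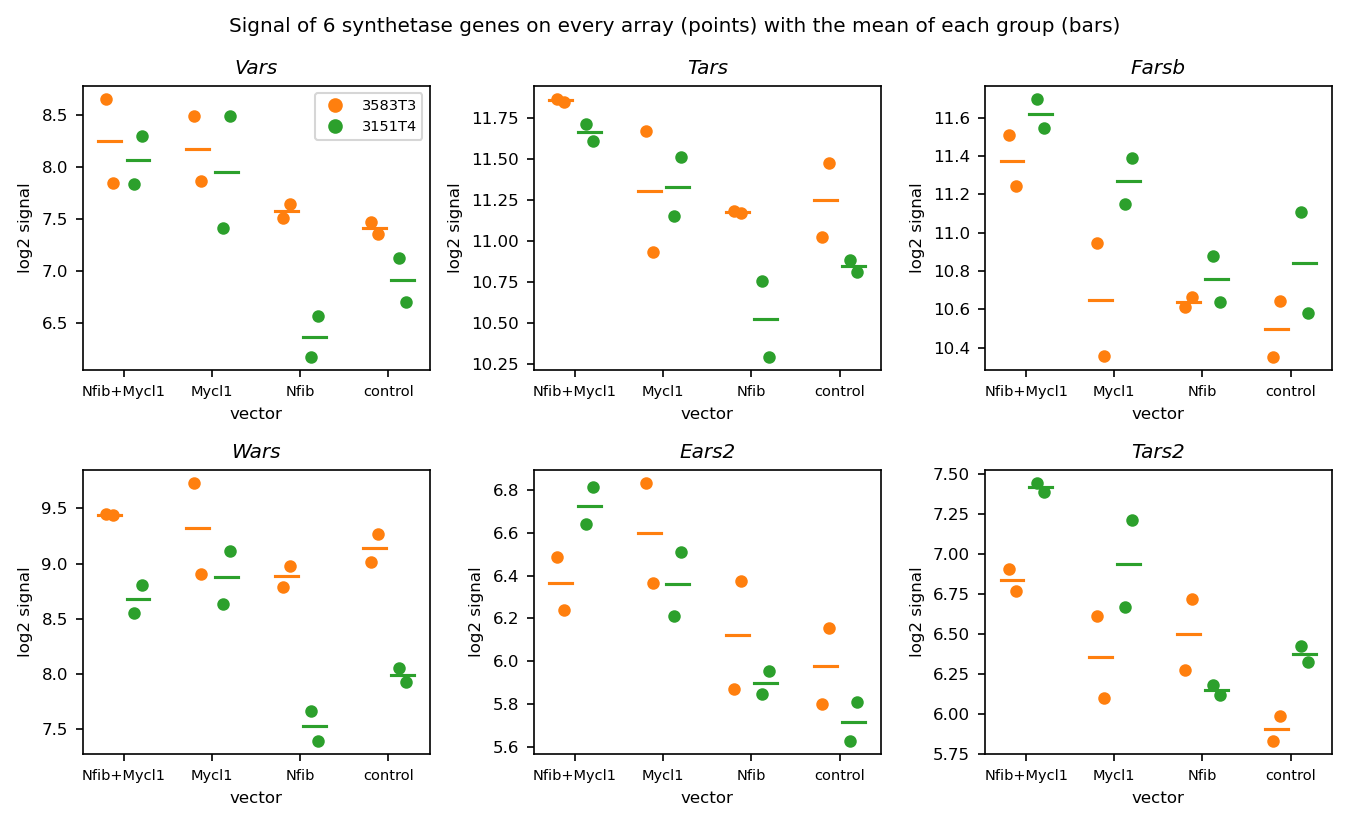
Log2 signal of 6 genes on every array (points, 3583T3 orange, 3151T4 green) by vector, with a bar at the mean of each line and vector. Nfib+Mycl1 arrays are above both controls of their line in all 6 panels, and replicates with Mycl1 alone spread widely in Vars, Tars and Farsb.

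Among mitochondrial genes, Tars2 (threonine) had the largest change. In 3583T3 cells Tars2 measured 6.91 and 6.76 with Nfib+Mycl1, 6.61 and 6.10 with Mycl1, 6.28 and 6.72 with Nfib, and 5.83 and 5.98 in controls. In 3151T4 cells Tars2 measured 7.44 and 7.39 with Nfib+Mycl1, 6.67 and 7.21 with Mycl1, 6.18 and 6.12 with Nfib, and 6.42 and 6.32 in controls. All 8 arrays with a Mycl1 label lay above both controls of their line, and so did both 3583T3 Nfib arrays. Tars2 rose by 0.99 ± 0.21 (SE, adjusted p = 0.00443) in Nfib+Mycl1 cells. Its other probe set gave 0.33 (adjusted p = 0.165), so the size depended on the probe set.

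Ears2 encodes the mitochondrial glutamate enzyme. Ears2 in 3583T3 cells stood at 6.49 and 6.24 with Nfib+Mycl1, at 6.83 and 6.36 with Mycl1, at 5.87 and 6.37 with Nfib and at 5.80 and 6.15 in controls. Ears2 in 3151T4 cells stood at 6.64 and 6.81 with Nfib+Mycl1, at 6.21 and 6.51 with Mycl1, at 5.85 and 5.95 with Nfib and at 5.63 and 5.81 in controls. All 8 arrays with a Mycl1 label lay above both Ears2 controls of their line. With Nfib+Mycl1 the Ears2 change was 0.70 ± 0.19 (SE, adjusted p = 0.0134), 0.39 in 3583T3 and 1.01 in 3151T4. Rars2 encodes the arginine enzyme. Rars2 in 3583T3 cells stood at 8.71 and 8.49 with Nfib+Mycl1, at 8.94 and 8.59 with Mycl1, at 8.35 and 8.74 with Nfib and at 8.34 and 8.33 in controls. Rars2 in 3151T4 cells stood at 9.18 and 9.14 with Nfib+Mycl1, at 8.75 and 8.89 with Mycl1, at 8.51 and 8.51 with Nfib and at 8.05 and 8.17 in controls. Rars2 rose by 0.66 ± 0.16 (SE, adjusted p = 0.00804), and all 12 arrays with a vector lay above both controls of their line.

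Kars apart, the complex members were not called against control with all 16 arrays. Of the 6, 1 was higher with Nfib+Mycl1 than in control, with a median change of 0.11, beside 8 of 12 cytosolic genes outside the complex with a median of 0.62. The difference between these groups of genes was not tested. The Rars signals in 3583T3 were 12.03 and 11.79 with Nfib+Mycl1, 11.76 and 11.63 with Mycl1, 11.94 and 11.99 with Nfib and 11.74 and 11.70 in untransfected cells. The Rars signals in 3151T4 were 12.12 and 12.28 with Nfib+Mycl1, 12.42 and 12.27 with Mycl1, 11.94 and 11.85 with Nfib and 12.24 and 12.03 in untransfected cells. The 3583T3 arrays with Nfib+Mycl1 or Nfib lay above both Rars controls. In 3151T4 the Mycl1 arrays lay above both controls and the Nfib arrays below them, and Nfib+Mycl1 overlapped the controls. Rars, for arginine, differed from control by 0.13 (adjusted p = 0.437). The Iars signals in 3583T3 were 11.55 and 11.63 with Nfib+Mycl1, 11.69 and 11.62 with Mycl1, 11.63 and 11.56 with Nfib and 11.64 and 11.64 in untransfected cells. The Iars signals in 3151T4 were 11.57 and 11.71 with Nfib+Mycl1, 11.77 and 11.64 with Mycl1, 11.33 and 10.99 with Nfib and 11.41 and 11.46 in untransfected cells. Iars, for isoleucine, gave 0.08 (adjusted p = 0.598), with Nfib+Mycl1 arrays below both controls in 3583T3 and above them in 3151T4. Qars in 3583T3 cells stood at 12.08 and 12.15 with Nfib+Mycl1, at 12.23 and 12.04 with Mycl1, at 12.11 and 12.18 with Nfib and at 12.15 and 12.08 in controls. Qars in 3151T4 cells stood at 11.91 and 11.93 with Nfib+Mycl1, at 12.00 and 11.82 with Mycl1, at 11.87 and 11.84 with Nfib and at 11.89 and 11.58 in controls. Qars, for glutamine, gave 0.09 (adjusted p = 0.426), with groups that overlapped in 3583T3. Lars in 3583T3 cells stood at 11.85 and 11.60 with Nfib+Mycl1, at 11.74 and 11.43 with Mycl1, at 11.58 and 11.69 with Nfib and at 11.44 and 11.65 in controls. Lars in 3151T4 cells stood at 11.26 and 11.40 with Nfib+Mycl1, at 11.33 and 11.40 with Mycl1, at 10.90 and 10.52 with Nfib and at 10.86 and 10.73 in controls. In 3151T4 every Lars array with a Mycl1 label lay above both controls, while in 3583T3 the groups overlapped. Lars, for leucine, gave 0.36 (adjusted p = 0.0701) with all arrays and 0.43 (adjusted p = 0.0387) without the 2 arrays. Eprs, which joins the glutamate and proline enzymes in 1 protein, had a value below 0. In 3583T3 cells Eprs measured 11.59 and 11.31 with Nfib+Mycl1, 10.95 and 11.60 with Mycl1, 11.81 and 11.92 with Nfib, and 11.68 and 11.36 in controls. In 3151T4 cells Eprs measured 11.90 and 12.08 with Nfib+Mycl1, 12.44 and 11.90 with Mycl1, 12.25 and 11.99 with Nfib, and 12.27 and 12.28 in controls. With Nfib+Mycl1 3 of 4 Eprs arrays lay below both controls, a difference of -0.18 (adjusted p = 0.431).

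The other cytosolic genes did not pass against control. Wars, for tryptophan, differed by 0.49 (adjusted p = 0.0838), Aars, for alanine, by 0.34 (adjusted p = 0.0911), Yars, for tyrosine, by 0.29 (adjusted p = 0.15) and Hars, for histidine, by 0.17 (adjusted p = 0.133). Of these, Wars, Aars and Yars exceeded both controls on all 4 Nfib+Mycl1 arrays. Among mitochondrial genes, Sars2 (serine) gave 0.29 (adjusted p = 0.241), Hars2 (histidine) 0.14 (adjusted p = 0.472), Pars2 (proline) 0.08 (adjusted p = 0.799), Iars2 (isoleucine) 0.05 (adjusted p = 0.816) and Fars2 (phenylalanine) -0.26 (adjusted p = 0.326). Pars2 was dim, at 4.16 to 5.87 over the 16 arrays, and Sars2 at 4.35 to 5.90. When the replicates of each group were averaged first, 2 of the 26 genes (Farsb and Gars) were called, and leaving out 1 array at a time gave 11 to 14. No share of all genes is set beside these counts.

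Other probe sets of the same genes were compared, 19 of which passed the filter. The called genes had 7 further probe sets in 5 genes, of which 7 had the same sign and 3 were called. A second probe set of Sars gave 0.68 (adjusted p = 0.00335). Of 3 further sets of Farsb, one gave 0.94 (adjusted p = 0.00496), another 0.83 (adjusted p = 0.0465), and the last 0.04 (adjusted p = 0.892). A second set of Nars gave 0.17 (adjusted p = 0.231) and one of Cars 0.12 (adjusted p = 0.579). For Hars a second set was called at 0.54 (adjusted p = 0.0114) where the brighter one was not. The 2 other sets of Qars gave 0.31 (adjusted p = 0.0326) and -0.45 (adjusted p = 0.1). Both sets of Fars2 opposed each other, with 0.47 (adjusted p = 0.0321) for the dimmer one.

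With Mycl1 alone fewer synthetase genes were called against control. Of the 26 genes, 3 were higher and 0 lower, a share near the 11.3% of all genes called, 6.63% higher and 4.69% lower. They were Nars, at 0.36 ± 0.11 (SE, adjusted p = 0.0438), Ears2, at 0.63 ± 0.19 (SE, adjusted p = 0.0438), and Rars2, at 0.57 ± 0.16 (SE, adjusted p = 0.0361). Vars missed the threshold at 0.90 ± 0.28 (SE, adjusted p = 0.0503). The change was above 0 for 25 of 26 genes, Eprs being the exception at -0.17, with a median of 0.30 for cytosolic and 0.42 for mitochondrial genes, beside 0.03 for all genes. On all 4 Mycl1 arrays, 3 cytosolic (Nars, Vars and Yars) and 3 mitochondrial genes (Ears2, Rars2 and Tars2) exceeded both controls of their line, beside 16.5% of all genes. Without the 2 arrays 5 genes were higher, beside 10.4% of all genes, with Farsa at 0.52 (adjusted p = 0.0329) and Vars at 0.90 (adjusted p = 0.0224) besides the 3.

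The Mycl1 replicates of 3583T3 differed from each other. The median cytosolic shift from control was 0.43 on replicate 1 and -0.08 on replicate 2, and 16 and 3 of 18 cytosolic genes exceeded both controls, as 49.1% and 40.4% of all genes did. The mitochondrial medians were 0.52 and 0.32, with 7 and 6 of 8 genes above both controls. In 3151T4 the cytosolic medians were 0.30 and 0.60 and the mitochondrial medians 0.24 and 0.50. The following counts with 1 array left out have no share of all genes beside them. A move particular to synthetases therefore cannot be told from a general one. Without 3583T3 Mycl1 replicate 2 the count of called synthetase genes was 10 of 26. It was 5 without 3583T3 Nfib replicate 2, 1 without 3583T3 Nfib+Mycl1 replicate 1 or 3583T3 control replicate 2, and 0 without 3583T3 control replicate 1, 3583T3 Mycl1 replicate 1, or any 1 array of the 3151T4 controls or 3151T4 Mycl1.

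**Figure D3:**
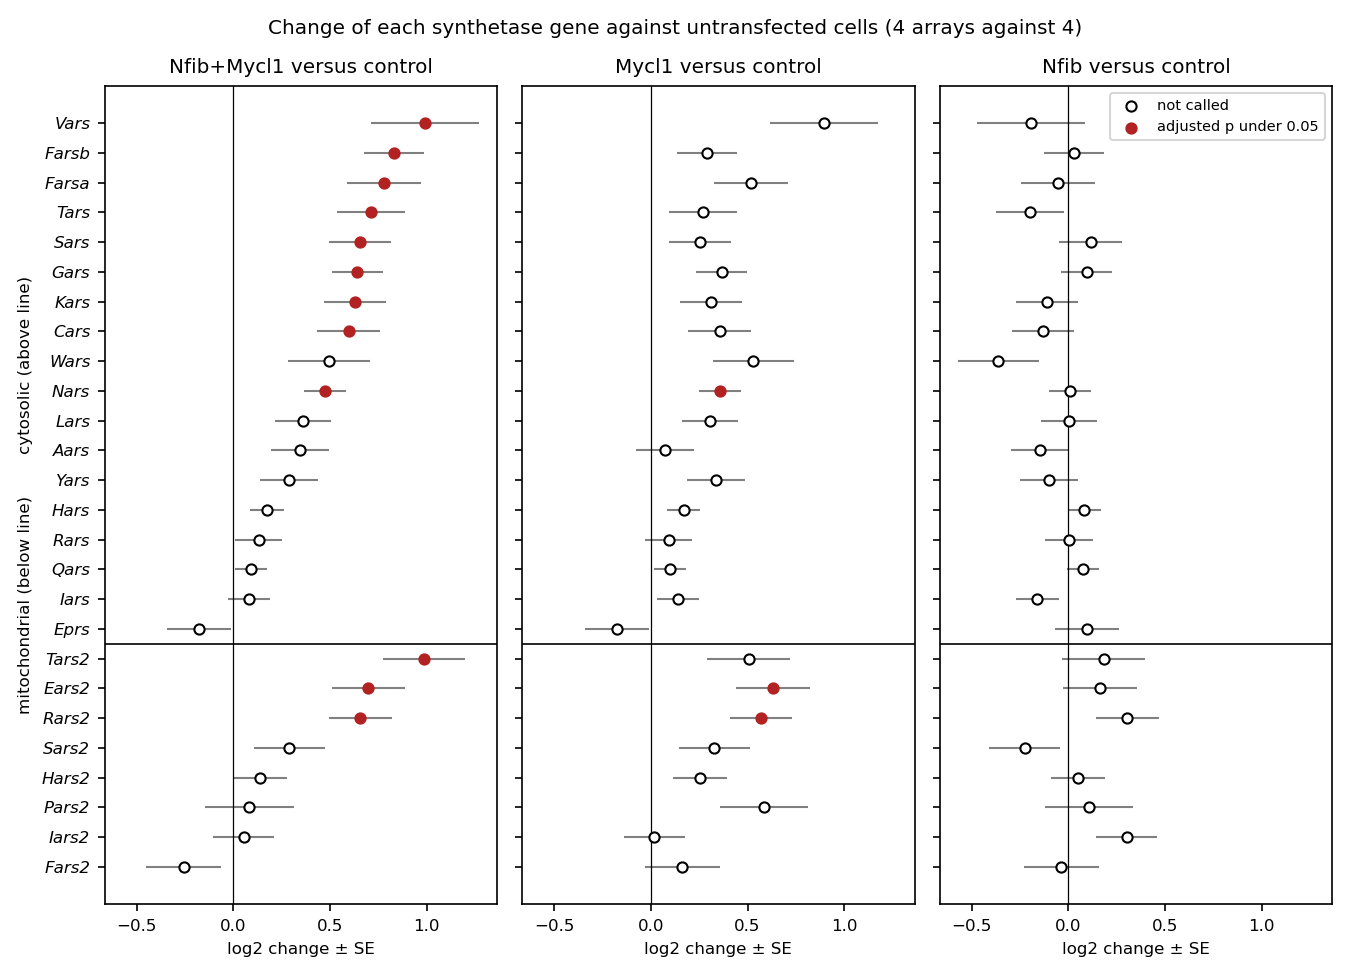
Log2 change of each gene against untransfected cells (points, ± SE from the limma fit, 4 arrays against 4) for Nfib+Mycl1, Mycl1 and Nfib, with called genes filled red and cytosolic genes above the line. The filled points number 12, 3 and 0, and they lie on the right of 0.

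No synthetase gene was called with Nfib alone. By limma 0 of 26 genes were called, beside 10.3% of all genes. An unadjusted limma p under 0.05 was reached by 0 of 26, beside 2070 of all 8777 genes. The differences ran from -0.36 (Wars) to 0.31 (Rars2), with a median of -0.03 for cytosolic and 0.14 for mitochondrial genes, beside 0.03 for all genes. Wars and Iars lay below both controls of their line on all 4 Nfib arrays, and Rars2 lay above them on all 4, beside 10.4% of all genes below and 13% above. Without the 2 arrays the count was again 0, beside 9.58% of all genes. Array weights gave 1 call, Wars, which was lower with Nfib.

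Wars was set beside interferon genes, since the tryptophan enzyme is known in human cells as an interferon-induced gene. Wars in 3583T3 cells stood at 9.45 and 9.44 with Nfib+Mycl1, at 9.73 and 8.91 with Mycl1, at 8.79 and 8.98 with Nfib and at 9.02 and 9.27 in controls. Wars in 3151T4 cells stood at 8.55 and 8.81 with Nfib+Mycl1, at 8.63 and 9.11 with Mycl1, at 7.66 and 7.39 with Nfib and at 8.05 and 7.93 in controls. All 4 Nfib arrays lay below both Wars controls of their line, and replicate 2 of 3583T3 Mycl1 lay between its Nfib arrays. Of 20 interferon response genes tested, 14 were higher and 0 lower with Nfib than in control, beside 5.3% of all genes higher. The smallest p-values were those of Ifit1, at 4.32 ± 0.67 (SE, adjusted p = 0.000804), H2-K1, at 0.70 ± 0.13 (SE, adjusted p = 0.00282), Usp18, at 3.75 ± 0.76 (SE, adjusted p = 0.00508), and Irf9, at 1.90 ± 0.43 (SE, adjusted p = 0.0106). Wars gave -0.36 (adjusted p = 0.33) in the same comparison. With Mycl1 against Nfib, 0 of the 20 were higher and 19 lower, beside 11.1% and 10.7% of all genes. Wars was higher there by 0.89 ± 0.21 (SE, adjusted p = 0.00897).

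Comparisons between vectors take no difference from the controls. The fit held all 16 arrays, however, so the controls entered its estimates of spread and of line. Of 16 leukocyte markers tested by limma, 0 were called between Nfib+Mycl1 and Nfib, beside 16.9% of all genes. Between Mycl1 and Nfib 0 were called, beside 21.8%. An unadjusted limma p under 0.05 was found for 0 and 2 of them, beside 2987 and 3147 of all 8777 genes. Within 3151T4, however, the summed leukocyte signal was 297 to 324 with Nfib+Mycl1 and 351 to 492 with Mycl1, against 1049 to 1052 with Nfib. There the mean log2 signal of Cd53 was 4.95 with Nfib+Mycl1 and 4.01 with Mycl1, against 8.46 with Nfib. That of Cd74 was 6.15 with Nfib+Mycl1 and 5.46 with Mycl1, against 8.57 with Nfib. Other markers of the list went the other way there. Lcp1 read 4.36 with Nfib+Mycl1 and 4.86 with Mycl1, against 3.76 with Nfib. Lyz1 and Lyz2 read 6.83 and 4.89 with Mycl1, against 3.90 and 3.38 with Nfib, but 2.23 and 2.46 with Nfib+Mycl1. In 3583T3 the sums were 256 to 298 with Nfib+Mycl1 and 454 to 484 with Mycl1, against 241 to 285 with Nfib. Their part in these comparisons was not tested. Nfib+Mycl1 exceeded Nfib in 12 of 26 genes, with 0 lower, beside 16.9% of all genes called, 8.89% higher and 8.04% lower. The 12 were Aars, Cars, Farsa, Farsb, Gars, Kars, Nars, Sars, Tars, Vars and Wars among cytosolic genes, and Tars2. The median difference was 0.51 for cytosolic and 0.22 for mitochondrial genes, beside -0.02 for all genes, and 1 of 6 complex members was called. Vars was higher by 1.18 ± 0.28 (SE, adjusted p = 0.0157), 2.27-fold, Tars by 0.91 ± 0.18 (SE, adjusted p = 0.0113), Wars by 0.86 ± 0.21 (SE, adjusted p = 0.0179) and Aars by 0.49 ± 0.15 (SE, adjusted p = 0.038). The Aars signals in 3583T3 were 10.31 and 10.37 with Nfib+Mycl1, 10.36 and 9.64 with Mycl1, 9.78 and 9.86 with Nfib and 9.69 and 10.16 in untransfected cells. The Aars signals in 3151T4 were 10.42 and 10.17 with Nfib+Mycl1, 9.98 and 10.21 with Mycl1, 9.97 and 9.70 with Nfib and 10.07 and 9.98 in untransfected cells. Aars arrays with Nfib+Mycl1 were above both Nfib arrays in each line. The call of Aars was lost without the 2 arrays, at 0.48 (adjusted p = 0.0601), and under 11 of 28 alternatives, over which its adjusted p ran from 0.0115 to 0.146. The 3 other probe sets of Wars were not called, at 0.27 (adjusted p = 0.329), 0.48 (adjusted p = 0.11) and 0.45 (adjusted p = 0.0866). In all, 7 called genes had 11 other probe sets, of which 10 had the same sign and 4 were called. The calls of Tars2 and Wars were lost when the probe sets of a gene were averaged. Without the 2 arrays 15 genes were higher and 0 lower, with Ears2, Lars, Rars2 and Yars in and Aars out, beside 13.1% of all genes higher. The count was 0 without replicate 3 of 3151T4 Nfib+Mycl1 or replicate 4 of 3151T4 Nfib, with no share of all genes beside it. Of 12 fibroblast markers 0 were higher and 2 lower in the same comparison, a share near the 16.9% of all genes called. Their part in it was not tested.

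Mycl1 exceeded Nfib in 7 genes, with 0 lower, beside 21.8% of all genes called, 11.1% higher and 10.7% lower. They were Vars, at 1.09 ± 0.28 (SE, adjusted p = 0.0138), Wars, Farsa, at 0.57 ± 0.19 (SE, adjusted p = 0.043), Cars, at 0.49 ± 0.16 (SE, adjusted p = 0.0435), Yars, at 0.44 ± 0.15 (SE, adjusted p = 0.0475), Nars, at 0.35 ± 0.11 (SE, adjusted p = 0.0313), and the mitochondrial Sars2, at 0.55 ± 0.18 (SE, adjusted p = 0.0431). In 3583T3 cells Yars measured 9.61 and 9.35 with Nfib+Mycl1, 9.74 and 9.48 with Mycl1, 9.46 and 9.42 with Nfib, and 9.29 and 9.18 in controls. In 3151T4 cells Yars measured 9.50 and 9.62 with Nfib+Mycl1, 9.39 and 9.66 with Mycl1, 8.92 and 8.72 with Nfib, and 9.17 and 9.28 in controls. In 3151T4 every Yars array with a Mycl1 label lay above every Nfib array. In 3583T3 cells Sars2 measured 5.45 and 5.51 with Nfib+Mycl1, 5.90 and 5.59 with Mycl1, 4.97 and 5.12 with Nfib, and 5.17 and 5.79 in controls. In 3151T4 cells Sars2 measured 4.99 and 5.18 with Nfib+Mycl1, 4.93 and 4.87 with Mycl1, 4.55 and 4.43 with Nfib, and 4.35 and 4.66 in controls. The Sars2 arrays with Mycl1 exceeded both Nfib arrays in each line. Without the 2 arrays 7 genes were higher, with Ears2 in and Sars2 out, beside 14.7% of all genes. Of 12 fibroblast markers 8 were lower and 0 higher in this comparison, beside 10.7% and 11.1% of all genes, and their part in it was not tested. With 1 array left out, and no share of all genes beside it, the count was 12 without 3583T3 Mycl1 replicate 2. It was 1 to 4 without any 1 of the 3151T4 arrays, the 3583T3 controls, 3583T3 Mycl1 replicate 1 or 3583T3 Nfib+Mycl1 replicate 1.

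Adding Nfib to Mycl1 gave no call. Of 26 genes 0 were called between Nfib+Mycl1 and Mycl1 by limma, beside 3.77% of all genes. An unadjusted limma p under 0.05 was found for 6 of 26, beside 2052 of all 8777 genes. Of 12 fibroblast markers 4 were higher and 0 lower in this comparison, beside 3.77% of all genes called. The part of these markers in it was not tested. Farsb came nearest, at 0.54 ± 0.16 (SE, adjusted p = 0.0653), followed by Tars, at 0.44 (adjusted p = 0.15), and Sars, at 0.40 (adjusted p = 0.158). Tars2 gave 0.48 (adjusted p = 0.193), while Fars2 and Pars2 gave -0.42 (adjusted p = 0.206) and -0.50 (adjusted p = 0.198). The interaction of Nfib and Mycl1, the change with both beyond the sum of the separate changes, was called for 0 of 26 genes, beside 0.308% of all genes. Leukocyte markers moved in the interaction, 11 of 16 higher and 0 lower, beside 0.308% of all genes called, and their part in it was not tested. The interaction had an unadjusted limma p under 0.05 for 2 of 26 genes, beside 852 of all 8777 genes. The 2 were Tars at 0.64 (adjusted p = 0.495) and Farsb at 0.51 (adjusted p = 0.504). Without 3151T4 Mycl1 replicate 4, or with 8 group means, 1 gene (Farsb) was called higher with Nfib+Mycl1 than with Mycl1.

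Over the 6 comparisons of vectors, 16 genes were called in at least 1 and 10 in none, beside 47.8% of all genes called in at least 1. Of the 6 cytosolic genes called in none, 5 were complex members (Eprs, Iars, Lars, Qars and Rars), and the other was Hars. The mitochondrial genes called in none were Fars2, Hars2, Iars2 and Pars2.

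Medians over the genes placed the 2 arrays with the opposed Mycl signal differently for the 2 kinds of enzyme. The cytosolic median shift was 0.44 on 3583T3 Nfib+Mycl1 replicate 1 and 0.41 on the array labelled replicate 2, against 0.03 on Nfib replicate 1 and 0.09 on the array labelled Nfib replicate 2. The mitochondrial median was 0.22 and 0.08 on the Nfib+Mycl1 arrays, against -0.03 and 0.32 on the Nfib arrays. The array labelled Nfib replicate 2 had 12 of 18 cytosolic genes above both controls, beside 44% of all genes, and replicate 1 had 6, beside 38.4%. In 3151T4 the cytosolic median was 0.53 and 0.47 with Nfib+Mycl1 and -0.07 and -0.28 with Nfib, and the mitochondrial median 0.28 and 0.66 with Nfib+Mycl1 and 0.08 and 0.06 with Nfib. Over all genes tested the medians of these arrays lay between -0.05 and 0.06.

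**Figure D4:**
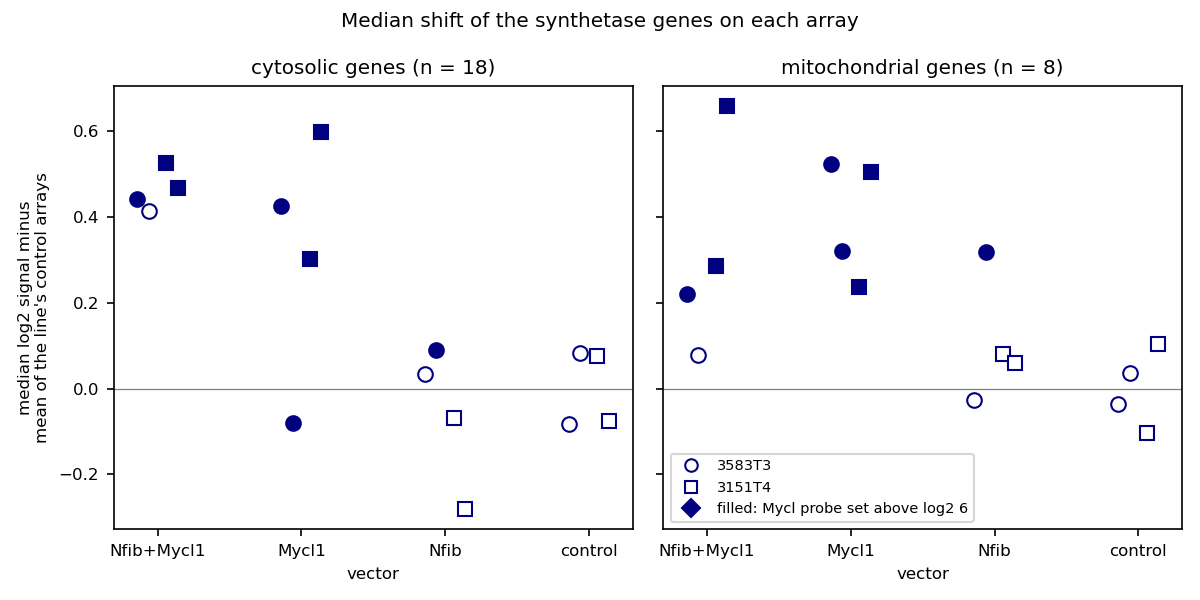
Median shift of the 18 cytosolic genes (left) and the 8 mitochondrial genes (right) on each array from the control mean of its line, on the log2 scale; filled symbols are arrays whose Mycl probe set exceeded log2 6, circles 3583T3 and squares 3151T4. Cytosolic medians with Nfib+Mycl1 lie between 0.41 and 0.53, whether filled or open, while a filled circle stands at 0.32 among the mitochondrial Nfib values.

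Between the lines 16 of 26 genes were called with 8 arrays against 8, a share near the 58.6% of all genes. Some markers of several cell types differed between the lines as well. The fibroblast markers had 1 of 12 higher and 8 lower in 3583T3, beside 27.7% and 30.9% of all genes. Their mean in controls was 8.11 to 8.54 in 3583T3 and 10.00 to 10.01 in 3151T4. The summed signal of 7 lung epithelium markers in controls was 5614 to 5724 in 3583T3 and 424 to 521 in 3151T4, most of it from Cdh1. Cdh1 averaged 12.46 in 3583T3 controls and 8.69 in 3151T4 controls. Sftpc went the other way, at 3.30 and 4.28, and 4 of the 7 exceeded log2 4 on no array. Of 15 neuroendocrine markers, Ddc averaged 1.59 in 3583T3 controls and 10.54 in 3151T4 controls. Insm1 went the other way, at 3.61 and 2.75, and 7 of the 15 exceeded log2 4 on no array. The part of all these markers in the line difference was not tested. Over all vectors, 3583T3 was higher than 3151T4 in 10 synthetase genes and lower in 6, beside 27.7% of all genes higher and 30.9% lower. Wars was the furthest apart, at 9.20 ± 0.33 in 3583T3 and 8.27 ± 0.60 in 3151T4 (SD, n = 8 each), a difference of 0.93 ± 0.15 (SE, adjusted p = 6.97e-05). Its 3 other probe sets were also called, at 0.84 (adjusted p = 5.13e-05), 0.95 (adjusted p = 3.38e-05) and 0.91 (adjusted p = 1.28e-05). Nars averaged 11.69 ± 0.18 in 3583T3 and 11.09 ± 0.31 in 3151T4, a difference of 0.60 ± 0.08 (SE, adjusted p = 6.88e-06), but its second probe set gave 0.01 (adjusted p = 0.882). Lars stood at 11.62 ± 0.14 in 3583T3 and 11.05 ± 0.34 in 3151T4, with a difference of 0.57 ± 0.10 (SE, adjusted p = 0.000205). Vars (0.53), Cars (0.50), Tars (0.30), Qars (0.27) and Gars (0.26) were the other cytosolic genes higher in 3583T3.

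Eprs showed the largest difference the other way, with 11.53 ± 0.31 in 3583T3 and 12.14 ± 0.20 in 3151T4, a difference of -0.61 ± 0.12 (SE, adjusted p = 0.000357). Its 2 other probe sets gave -0.84 (adjusted p = 3.31e-05) and -0.67 (adjusted p = 5.1e-06). Sars (-0.49), Farsb (-0.33) and Rars (-0.32) were also lower in 3583T3. Among mitochondrial genes, Sars2 was higher in 3583T3 by 0.69 ± 0.13 (SE, adjusted p = 0.000293) and Hars2 by 0.52 ± 0.10 (SE, adjusted p = 0.000346), while Fars2 was lower, at -0.60 ± 0.14 (SE, adjusted p = 0.00158), and so was Iars2, at -0.40 ± 0.11 (SE, adjusted p = 0.00579). Hars2 in 3583T3 cells stood at 8.55 and 8.23 with Nfib+Mycl1, at 8.74 and 8.75 with Mycl1, at 8.32 and 8.53 with Nfib and at 8.40 and 8.18 in controls. Hars2 in 3151T4 cells stood at 7.98 and 8.16 with Nfib+Mycl1, at 7.80 and 8.11 with Mycl1, at 7.84 and 7.88 with Nfib and at 7.87 and 7.93 in controls. The Hars2 arrays of the lines did not overlap. The Fars2 signals in 3583T3 were 7.22 and 6.45 with Nfib+Mycl1, 7.39 and 7.59 with Mycl1, 6.79 and 7.26 with Nfib and 6.98 and 7.22 in untransfected cells. The Fars2 signals in 3151T4 were 7.29 and 7.79 with Nfib+Mycl1, 7.78 and 7.67 with Mycl1, 7.73 and 7.85 with Nfib and 7.67 and 7.90 in untransfected cells. The Fars2 arrays of 3583T3 lay below every array of 3151T4, except both arrays with Mycl1 alone. The Iars2 signals in 3583T3 were 9.18 and 8.77 with Nfib+Mycl1, 8.91 and 9.09 with Mycl1, 9.33 and 9.70 with Nfib and 9.13 and 8.85 in untransfected cells. The Iars2 signals in 3151T4 were 9.52 and 9.65 with Nfib+Mycl1, 9.62 and 9.37 with Mycl1, 9.59 and 9.51 with Nfib and 9.25 and 9.67 in untransfected cells. The lines overlapped in Iars2 through the Nfib arrays of 3583T3. Aars and Hars differed by -0.04 and -0.01. Of 15 further probe sets of the called genes, 15 had the same sign and 13 were called. With the 4 control arrays alone 6 of the 26 genes were called, with no share of all genes beside them. Without the 2 arrays 8 were higher and 7 lower, with Tars2 in and Gars and Tars out, beside 27.3% and 30.7% of all genes. The calls of Gars, Tars and Vars were lost without single arrays.

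**Figure D5:**
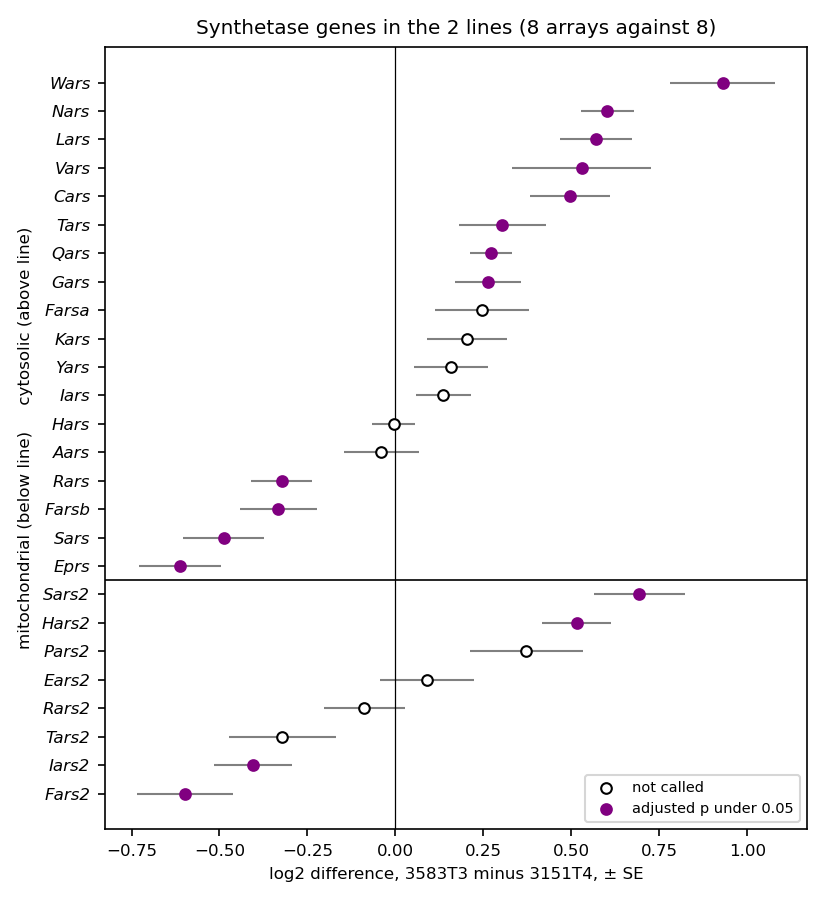
Log2 difference between 3583T3 and 3151T4 for each gene (points, ± SE from the limma fit, 8 arrays against 8), called genes filled purple, cytosolic genes above the line and mitochondrial genes below it. Filled points lie on both sides of 0, from 0.93 for Wars to -0.61 for Eprs.

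The response to a vector was compared between the lines, 3583T3 minus 3151T4. Leukocyte markers were called in these differences too, with 11, 10 and 8 of 16 lower for Nfib, Mycl1 and Nfib+Mycl1. Of all genes 6.85%, 2.13% and 5.97% were called in either direction. The part of the leukocyte markers was not tested. For Nfib 0 of 26 genes were called, beside 6.85% of all genes. An unadjusted limma p under 0.05 was found for 3 (Rars, Tars2 and Yars), beside 1693 of all 8777 genes. For Mycl1 0 were called, beside 2.13% of all genes, and 1 (Lars) had such a p, beside 1008 of all genes. For Nfib+Mycl1 0 were called, beside 5.97%, and 1 (Rars2) had such a p, beside 1500 of all genes. The Nfib+Mycl1 change of Rars2 was 0.26 in 3583T3 and 1.05 in 3151T4, a difference of -0.79 (adjusted p = 0.11). The Mycl1 change of Lars was 0.04 in 3583T3 and 0.57 in 3151T4, a difference of -0.53 (adjusted p = 0.379). The median cytosolic change with Mycl1 was 0.11 in 3583T3 and 0.43 in 3151T4, and with Nfib+Mycl1 0.43 in 3583T3 and 0.51 in 3151T4. The median mitochondrial change with Mycl1 was 0.44 in 3583T3 and 0.40 in 3151T4, and with Nfib+Mycl1 0.05 in 3583T3 and 0.41 in 3151T4. The Nfib+Mycl1 medians of 3583T3 include the array labelled replicate 2, whose Mycl signal went against its label.

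Genes around the synthetases in transfer RNA charging and in translation were read as lists. Of the 3 scaffold genes, Aimp2 was higher with Nfib+Mycl1 than in control by 0.67 ± 0.15 (SE, adjusted p = 0.00597), while Aimp1 and Eef1e1 were not called. Of 8 other charging genes tested, 4 were higher and 0 lower with Nfib+Mycl1, beside 16.3% of all genes higher. They were Aarsd1, an editing protein for mischarged alanine transfer RNA, at 0.73 ± 0.19 (SE, adjusted p = 0.0102), Dtd1, which removes D-amino acids from transfer RNA, at 0.68 ± 0.20 (SE, adjusted p = 0.0215), and the mitochondrial amidotransferase subunits Gatc, at 0.57 ± 0.16 (SE, adjusted p = 0.0136), and Gatb, at 1.46 ± 0.42 (SE, adjusted p = 0.0184).

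Of 35 transfer RNA modification genes tested, 15 were higher, 0 lower and 20 not called with Nfib+Mycl1, beside 16.3% of all genes higher. With Mycl1 10 were higher, 0 lower and 25 not called, beside 6.63%, and with Nfib 1 was higher and 0 lower, beside 5.3%. The list medians, each against control, were 0.38 with Nfib+Mycl1, 0.42 with Mycl1 and 0.03 with Nfib. Qtrt1, of the enzyme that inserts queuine, was higher by 1.77 ± 0.34 (SE, adjusted p = 0.00221) with Nfib+Mycl1 and by 1.75 ± 0.34 (SE, adjusted p = 0.00924) with Mycl1. The next by p-value with Nfib+Mycl1 were Trdmt1, a methyltransferase, at 0.82 ± 0.17 (SE, adjusted p = 0.00303), Dus1l, a dihydrouridine synthase, at 1.05 ± 0.22 (SE, adjusted p = 0.00332), and Elp4, a subunit of Elongator, at 0.52 ± 0.11 (SE, adjusted p = 0.00373). With Mycl1 they were Mettl1, another methyltransferase, at 1.11 ± 0.24 (SE, adjusted p = 0.0153), Trit1, at 0.62 ± 0.14 (SE, adjusted p = 0.0182), and Gtpbp3, which acts on mitochondrial transfer RNA, at 0.60 ± 0.14 (SE, adjusted p = 0.0212).

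Of 18 genes of transcription by RNA polymerase III, which reads transfer RNA genes among others, 3 were higher and 1 lower with Nfib+Mycl1. These shares were near or below the 16.3% of all genes higher and 14.7% lower. With Mycl1 2 were higher and 0 lower, beside 6.63% and 4.69%. With Nfib+Mycl1 the RNA polymerase III subunits Polr3c and Polr3e were higher by 0.74 ± 0.14 (SE, adjusted p = 0.00211) and 0.92 ± 0.25 (SE, adjusted p = 0.0139). Gtf3a, which encodes a transcription factor used with RNA polymerase III, gave 0.75 ± 0.19 (SE, adjusted p = 0.00862), and the subunit gene Polr3k was lower, at -0.50 ± 0.17 (SE, adjusted p = 0.0349). Of 9 elongation genes, 4 were higher and 0 lower with Nfib+Mycl1, beside 16.3% of all genes higher. The mitochondrial factors Tufm and Gfm1 were higher by 0.78 ± 0.13 (SE, adjusted p = 0.00117) and 0.95 ± 0.19 (SE, adjusted p = 0.00261), and the cytosolic factors Eef1a1 and Eef2 by 0.72 ± 0.18 (SE, adjusted p = 0.00833) and 0.43 ± 0.14 (SE, adjusted p = 0.0346).

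Of 21 MYC targets, 16 were higher and 0 lower with Nfib+Mycl1 (median 0.87), beside 16.3% of all genes higher. With Mycl1 10 were higher and 0 lower (median 0.70), beside 6.63%. With Nfib 0 were called by limma (median -0.03), beside 10.3% of all genes. An unadjusted limma p under 0.05 was found for 1 of the 21, beside 2070 of all 8777 genes. The smallest p-values with Nfib+Mycl1 were those of the nucleolar genes Gar1, at 1.06 ± 0.17 (SE, adjusted p = 0.000931), Ppan, at 1.24 ± 0.20 (SE, adjusted p = 0.00108), Fbl, at 1.05 ± 0.19 (SE, adjusted p = 0.0018), and Nolc1, at 1.39 ± 0.27 (SE, adjusted p = 0.00221). Of 34 ATF4 targets tested, 6 were higher and 4 lower with Nfib+Mycl1, near the 16.3% and 14.7% of all genes. With Mycl1 2 were higher and 1 lower, beside 6.63% and 4.69% of all genes, and with Nfib 2 higher and 1 lower, beside 5.3% and 4.96%. The list medians were 0.05 with Nfib+Mycl1, 0.05 with Mycl1 and 0.04 with Nfib. With Nfib+Mycl1, Stc2, a secreted glycoprotein gene, was higher by 1.99 ± 0.34 (SE, adjusted p = 0.00124) and Slc1a5, a glutamine transporter gene, by 1.34 ± 0.28 (SE, adjusted p = 0.00331). Phgdh, of serine synthesis, was higher by 0.70 ± 0.15 (SE, adjusted p = 0.00357), while Slc38a2, another amino acid transporter gene, was lower, at -0.52 ± 0.11 (SE, adjusted p = 0.00345). Per array, the median shift of the ATF4 targets was -0.01 to 0.19 with Nfib+Mycl1, -0.12 to 0.16 with Mycl1 and -0.14 to 0.19 with Nfib. That of the cytosolic synthetases was 0.41 to 0.53 with Nfib+Mycl1, -0.08 to 0.60 with Mycl1 and -0.28 to 0.09 with Nfib. The difference between the lists was not tested.

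The calls were counted by promoter motif, with no test. With Nfib+Mycl1 against control, 3 of 5 genes with an E-box were called, with a median change of 0.70, and 6 of 12 without one, with a median of 0.46. For the response element, 2 of 5 genes with it were called, with a median of 0.34, and 7 of 12 without it, with a median of 0.64. Of the 3 genes with both motifs, Tars rose, and Aars and Iars did not pass the test. Other comparisons differed. With Mycl1 against control the medians were 0.27 with and 0.32 without an E-box, and 0.27 with and 0.30 without the response element. Between Nfib+Mycl1 and Nfib, for each motif, 3 of 5 genes with it were called and 5 of 12 without it. Between Mycl1 and Nfib, 0 of 5 genes with an E-box were called and 3 of 12 without one. For the response element these were 1 of 5 and 2 of 12.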

How the data were processed

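RNA from cultured cells was hybridised to 1 Affymetrix mouse array per sample, and 16 arrays in 8 groups of 2 were used. The deposited values are log2 signals. The submitters' processing notes name GCRMA (version 2.20.0) and R (version 2.11.0). GCRMA corrects background, normalizes between arrays and summarises probes into probe sets. The log2 scale was read from the deposited values, 0.475 to 14.4, since no source used here states it. Array signals give no counts, so precision is limited by the number of arrays.

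The platform annotation paired 20380 of 22690 probe sets with 1 gene symbol and 691 with several; 1555 carried none, and 64 were controls. The brightest probe set on average was kept for each of 12393 genes, and 8777 genes above log2 4 on at least 2 arrays were tested. Linear models were fitted in limma 3.58.1 under R 4.3.3 (lmFit, eBayes with a mean-variance trend), with Benjamini-Hochberg adjustment over the 8777 genes. The model held vector and line (11 residual degrees of freedom), and responses by line used 8 group means (8 residual degrees of freedom). Calls were made at an adjusted p under 0.05. The fit was tested on simulated data.

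Every synthetase gene was named, with full values where called, and from each other list up to 4 genes with the smallest p in a comparison that called any. Members, lists, markers and the removal of 2 arrays were chosen with earlier results of these data known. Promoters came from RefSeq (GRCm38.p6), and motifs were searched on both strands. Alternatives covered the filter, choice of probe set, scaling, variance model, array weights, replicates and arrays left out.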

Additional observations from a re-analysis of the deposited data

Results flagged for a closer look

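For 6 genes both arrays of 1 line lay above both of its controls and both arrays of the other line below both of theirs. The test of the difference between the lines missed the threshold by limma in every case. No share of all genes is set beside this count. The pattern therefore cannot be called particular to synthetases. With Nfib, Tars2 was 0.59 in 3583T3 and -0.22 in 3151T4, a difference of 0.81 (adjusted p = 0.200). Vars was 0.16 in 3583T3 and -0.54 in 3151T4, a difference of 0.70 (adjusted p = 0.489). Yars was 0.20 in 3583T3 and -0.41 in 3151T4, a difference of 0.61 (adjusted p = 0.170). Eprs was 0.34 in 3583T3 and -0.15 in 3151T4, a difference of 0.50 (adjusted p = 0.415). Rars was 0.25 in 3583T3 and -0.24 in 3151T4, a difference of 0.48 (adjusted p = 0.150). With Nfib+Mycl1, Iars was -0.05 in 3583T3 and 0.21 in 3151T4, a difference of -0.26 (adjusted p = 0.564). The array labelled 3583T3 Nfib replicate 2, whose Mycl signal went against its label, enters all 5 Nfib differences.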

How the results depend on the processing

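Of 50 gene calls, leaving out 1 array at a time kept 655 of 800, the other alternatives kept 511 of 598, and 0 reversed direction. Called genes ranged, with 1 array left out, from 0 to 10 for Mycl1 against control, 11 to 14 for Nfib+Mycl1 against control, 0 to 15 for Nfib+Mycl1 against Nfib, 0 to 1 for Nfib+Mycl1 against Mycl1, 1 to 12 for Mycl1 against Nfib and 13 to 18 between lines; the other comparisons stayed at 0. Mycl1 against control gave 1 called gene with no filter or with arrays centred on their medians, 8 with array weights, 7 with 8 group means, 5 with only the groups compared and 5 without the 2 arrays. Mycl1 against Nfib gave 3 genes with no filter, 16 with array weights and 1 with only the groups compared. When every probe set was tested, it gave 12 probe sets, which are not counts of genes. Array weights gave 1 for Nfib against control and 19 for Nfib+Mycl1 against Nfib, and 8 group means gave 1 for Nfib+Mycl1 against Mycl1. Between lines, 29 probe sets were called when every probe set was tested, and 6 genes with control arrays alone. Averaged replicates, which leave fewer samples, gave 2 for Nfib+Mycl1 against control and 0 for Mycl1 against control, Nfib+Mycl1 against Nfib and Mycl1 against Nfib. With a replicate block, Mycl1 against control gave 0 and Mycl1 against Nfib 3. Same-numbered arrays, less their group means, correlated over 0.1 in 3 of 12 pairs of groups. All 3 were in 3151T4, at 0.19 to 0.31. Whether the numbers pair the samples cannot be told from these values. The causes of these moves were not tested. Calls over all genes moved as well, with 994 of 8777 for Mycl1 against control and 1685 without the 2 arrays. Under the other settings here no share of all genes is set beside the counts. The moves therefore cannot be called particular to synthetases. Dim genes such as Pars2 and Sars2 lie near the filter.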
